A study of Homo sapiens with 12 samples.

Results

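Day 25 was compared with day 15 of a differentiation of H9 (WA09), an established line of human embryonic stem cells, that was directed at γδ T cells. The comparison holds 6 of the 12 bulk RNA-sequencing libraries of the study, which were 3 labelled mature γδ T cell at day 25 and 3 labelled T progenitor cells at day 15, and it covers 20183 tested genes out of 36601 gene IDs in the count table. The libraries were chosen by their day in the labels alone, and all tested genes entered the comparison, while the genes named below include those with the largest changes.

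Both groups were wild type, belonged to the same labelled batch and shared their whole earlier treatment. Colonies grown on mouse embryonic fibroblast feeders were made into aggregates and taken through CHIR99021, BMP4, Activin A and a Rock inhibitor, then VEGF and bFGF, then Flt3L, IL-7, SCF and SB431542. From day 10 both groups were kept in MEM-α with serum, MAP, SCF, IL-7, Flt3L and DLL4, with partial medium changes every other day, so the day 25 cells differ from the day 15 cells in time and not in a named agent. The labels state no sorting step, and they do not say whether the 3 libraries of a day came from separate cultures, so the p-values below measure only the spread between these libraries.

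T cells develop from blood progenitors under Notch signalling, which DLL4 triggers, and with IL-7 and SCF. The γδ lineage joins gamma and delta chains of the T cell receptor (TCR), which reach the surface only with the CD3 proteins. SCF and Flt3L also act on progenitors of granulocytes, mast cells, megakaryocytes and macrophages, and early blood formation from embryonic stem cells resembles the yolk sac, where megakaryocytes, red cells and macrophages arise.

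Day 25 libraries held 30283113 to 39811230 counts and day 15 libraries 27351361 to 33045181. Levels are in CPM, the count scaled to the library total with edgeR's TMM factors, and are given ± SD over 3 libraries per day. Log2 fold changes are day 25 minus day 15, ± SE, from edgeR's quasi-likelihood fit. A gene is called at a Benjamini-Hochberg adjusted p under 0.05. Mitochondrially encoded genes took 5.26% to 5.68% of counts at day 25, against 3.46% to 3.61% at day 15. Cytosolic ribosomal protein genes took 2.15% to 2.19% at day 25, against 1.23% to 1.26% at day 15, and the part of these shares in the results was not tested. Counts of 2 were more frequent than counts of 1 in all 12 libraries, and whether each count is a separate fragment is not known. Since the libraries are bulk, fewer cells of a type and less RNA per cell cannot be told apart.

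Most of the transcriptome differed between the days. Of the 20183 tested genes, 15741 were called (78%). Of these 8121 were higher (40.2%) and 7620 lower at day 25 (37.8%), and in 15966 genes (79.1%) the 3 day 25 libraries did not overlap the 3 day 15 libraries. At least 2-fold changes were called in 4961 genes that rose (24.6%) and 4781 that fell (23.7%). Large falls outnumbered large rises, with 676 genes at least 16-fold higher and 1135 at least 16-fold lower, and 194 at least 64-fold higher and 507 at least 64-fold lower. The median log2 fold change over all tested genes was 0.06, with quartiles at -1.0 and 1.1. TMM factors were 1.03 to 1.04 at day 25 and 0.753 to 0.759 at day 15. With libraries scaled by total count alone the median moved up by 0.46 and the split became 10769 higher and 5402 lower, so small changes are read relative to that shift. Among 15917 protein-coding genes 7347 were higher and 5796 lower, while among 1462 lincRNA genes 297 were higher and 653 lower. Antisense genes, whose reads cannot be told from those of the opposite strand because the strand setting is unknown, counted 298 higher and 727 lower of 1789.

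**Figure D1:**
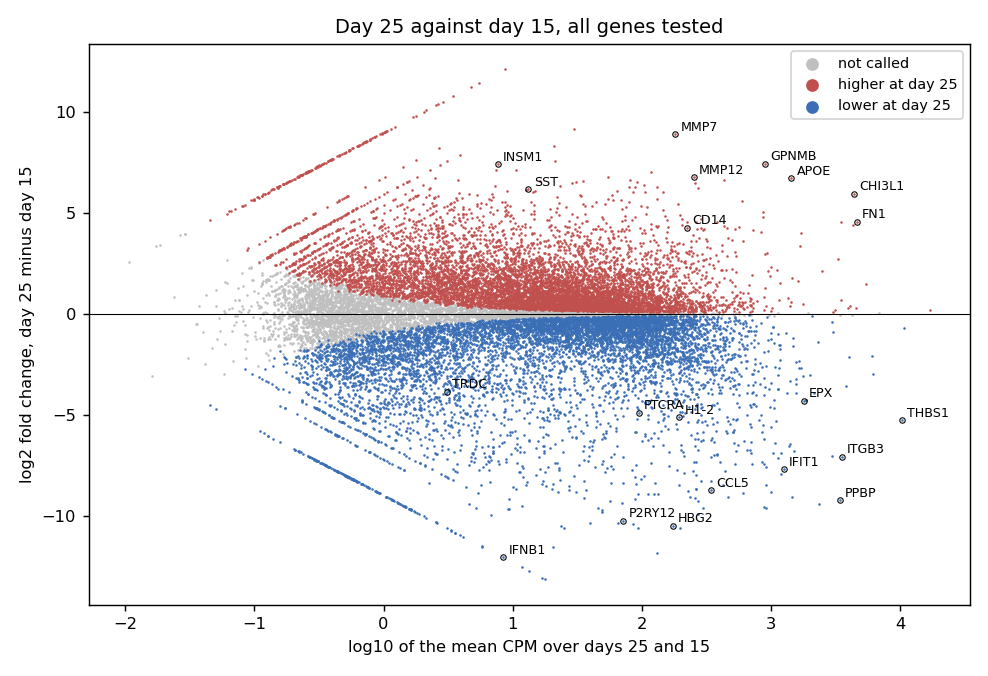
Log2 fold change of every tested gene (day 25 minus day 15) against the log10 of its mean CPM over both days, with called genes in red (higher at day 25) or blue (lower at day 25) and others in grey. Macrophage and matrix genes such as CHI3L1, GPNMB and APOE lie high on the upper right, and platelet genes such as THBS1, ITGB3 and PPBP on the lower right. The diagonal streaks at low levels are genes with few or no counts on one of the days.

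The labelled cell types were checked first. The defining markers of T cells were at or near 0 on both days, so the groups are called by their day. CD3G had no count in any of the 6 libraries, CD3D had 0 counts at day 25 and 3 at day 15, and LCK, the kinase that starts TCR signalling, had 14 counts at day 25 and 4 at day 15. CD3E, a CD3 chain, measured 0.0946, 0.121 and 0.288 CPM at day 25, against 0, 0 and 0 CPM at day 15. It was called higher, but on 17 counts at day 25 and 0 at day 15, which makes it at least 3.76-fold higher against the limit of 3 counts over the day 15 libraries (adjusted p = 0.00699). The summed level of 6 T cell markers (CD3D, CD3E, CD3G, TRAC, TRBC1 and TRDC) was 0.725 to 1.11 CPM at day 25, against 5.63 to 6.38 CPM at day 15, and TRDC held most of it at day 15.

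TCR genes were low on both days, and TRDC and CD247 were lower at day 25. Of 10 TCR constant and CD3 genes, 5 passed the filter on low counts, and 1 of these was higher and 4 lower, or 1 higher and 2 lower with scaling by total count alone. Of all tested genes 40.2% were higher and 37.8% lower. TRDC (chromosome 14, 22462932 to 22465787, with gene positions from GENCODE 29 on GRCh38), the constant region of the delta chain, measured 0.221, 0.723 and 0.192 CPM at day 25, against 5.91, 6.19 and 5.35 CPM at day 15. No library of one day reached the other, and TRDC was 14.5-fold lower at day 25 (log2 fold change -3.85 ± 0.42, adjusted p = 9.27e-11). CD247, the CD3 zeta chain, was 21.5-fold lower, on 8 counts at day 25 and 123 at day 15 (adjusted p = 6.07e-06). With so few counts at day 25 CD247 could pass the filter only through other days, so its direction carries no weight in the count of lower genes. The constant region of the gamma chain is encoded by TRGC1 and TRGC2, near-identical copies whose reads may be split by the counting. TRGC1 measured 9.05, 10.7 and 10.3 CPM at day 25, against 15.9, 12.6 and 11.1 CPM at day 15. Its small fall (log2 fold change -0.39 ± 0.12, adjusted p = 0.00411) did not pass when day 15 replicate 1 was left out, at -0.23 (adjusted p = 0.105). With scaling by total count alone the log2 fold change turned to 0.063. TRGC2 averaged 4.90 ± 0.0444 CPM at day 25, against 7.78 ± 1.67 CPM at day 15 (log2 fold change -0.67 ± 0.16, adjusted p = 3.67e-04). That call was lost with scaling by total count alone, at -0.21.

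Of 10 delta and gamma variable genes of the TCR 4 were testable. Of these 3 were lower and none higher, where 37.8% of all tested genes were lower, and scaling by total count alone left 1 lower. TRGV5 averaged 0.315 ± 0.357 CPM at day 25, against 1.67 ± 0.898 CPM at day 15 (log2 fold change -2.31 ± 0.61, adjusted p = 7.64e-04). The 59 beta variable genes of the table, a list added after the values were seen, held 14 counts at day 25 and 611 at day 15. All 6 testable ones were lower, where 37.8% of all tested genes were lower. With so few counts at day 25 these 6 could pass the filter only through other days, so nothing is drawn from their shared direction. PTCRA, the surrogate alpha chain of the pre-TCR, measured 5.96, 6.34 and 6.02 CPM at day 25, against 175, 184 and 189 CPM at day 15. It was 29.8-fold lower at day 25 (log2 fold change -4.90 ± 0.07, adjusted p = 1.78e-41). RAG1, a recombinase of TCR rearrangement, averaged 3.11 ± 0.634 CPM at day 25, against 5.52 ± 0.240 CPM at day 15 (log2 fold change -0.82 ± 0.22, adjusted p = 0.00103), a call that scaling by total count alone did not keep (-0.36). RAG2 and DNTT did not pass the filter on low counts.

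Most genes of TCR signalling were lower at day 25, and GRAP2, LAT and PRKCQ among them also serve platelets. Of 13 tested genes of the list 9 were lower and 4 higher, beside 37.8% and 40.2% of all tested genes. The median log2 fold change was -2.53, beside 0.06 over all tested genes. GRAP2, an adaptor that binds LAT and SLP-76, measured 8.76, 9.36 and 10.1 CPM at day 25, against 1786, 1797 and 1849 CPM at day 15. PRKCQ, a protein kinase C of the TCR synapse, averaged 1.5 ± 0.546 CPM at day 25, against 103 ± 2.09 CPM at day 15. LAT, the membrane adaptor, averaged 25.7 ± 2.43 CPM at day 25, against 882 ± 15.6 CPM at day 15. All 3 fell (193-fold, 71.0-fold and 34.5-fold, with adjusted p of 1.09e-55, 5.47e-26 and 1.91e-49). The megakaryocyte markers ITGA2B, GP9 and PF4 summed to 51.3 to 54.2 CPM at day 25, against 9417 to 10087 CPM at day 15, and their part in the falls of GRAP2, PRKCQ and LAT was not tested. SIT1 and ZAP70 were among the 4 that were higher.

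Of 17 tested transcription factors of the T lineage 8 were higher and 6 lower, close to the 40.2% and 37.8% of all tested genes. With scaling by total count alone 12 were higher and 4 lower. RUNX3, which acts in cytotoxic T cells and in myeloid cells, measured 148, 147 and 149 CPM at day 25, against 19.0, 14.6 and 17.6 CPM at day 15, 8.63-fold higher at day 25 (log2 fold change 3.11 ± 0.07, adjusted p = 2.25e-35). BCL11B, which fixes the T cell fate, rose but stayed near 1 CPM, with 0.940 ± 0.0904 CPM at day 25, against 0.111 ± 0.129 CPM at day 15 (log2 fold change 3.00 ± 0.72, adjusted p = 2.44e-04). TCF7, a Notch target that opens the T cell programme, averaged 6.67 ± 1.43 CPM at day 25, against 3.32 ± 0.699 CPM at day 15 (log2 fold change 1.00 ± 0.19, adjusted p = 6.62e-06). In the other direction ETS1 averaged 44.1 ± 2.63 CPM at day 25, against 365 ± 2.54 CPM at day 15. BACH2 averaged 5.40 ± 0.741 CPM at day 25, against 40.5 ± 1.81 CPM at day 15. GATA3 averaged 8.06 ± 1.90 CPM at day 25, against 17.2 ± 1.67 CPM at day 15, with log2 fold changes of -3.04, -2.90 and -1.09 (adjusted p = 8.09e-42, 6.46e-25 and 2.83e-09).

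Of 13 tested factors tied to the γδ fate 7 were higher and 5 lower, beside 40.2% and 37.8% of all tested genes, so the lower share is that of the background. EGR2, which is induced by TCR signals and is also a macrophage factor, measured 146, 153 and 152 CPM at day 25, against 7.97, 10.4 and 7.35 CPM at day 15 (log2 fold change 4.14 ± 0.08, adjusted p = 2.41e-36). MAF, used by γδ T cells that make IL-17 and by macrophages, averaged 144 ± 0.518 CPM at day 25, against 15.5 ± 0.496 CPM at day 15 (log2 fold change 3.21 ± 0.07, adjusted p = 2.59e-32). ZBTB16, the factor PLZF of innate-like T cells, was 17.5-fold lower, with 14.5 ± 0.546 CPM at day 25, against 252 ± 7.66 CPM at day 15 (adjusted p = 1.53e-44). Macrophage markers moved with EGR2 and MAF: CD14, CSF1R and CD163 summed to 2003 to 2045 CPM at day 25, against 133 to 147 CPM at day 15, and their part in these rises was not tested.

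Surface proteins of thymocytes rose in 8 and fell in 5 of 15 tested genes, not far from the 40.2% and 37.8% of all tested genes. CD4, which macrophages also carry, measured 404, 408 and 409 CPM at day 25, against 49.4, 53.5 and 52.9 CPM at day 15 (log2 fold change 2.97 ± 0.05, adjusted p = 3.23e-40). CD52 averaged 229 ± 2.85 CPM at day 25, against 18.4 ± 0.623 CPM at day 15 (log2 fold change 3.64 ± 0.06, adjusted p = 9.46e-41). IL7R, the receptor for the IL-7 of the medium, averaged 61.2 ± 2.97 CPM at day 25, against 25.3 ± 1.21 CPM at day 15 (log2 fold change 1.27 ± 0.08, adjusted p = 3.62e-18). CD69, an early activation protein that platelets and eosinophils share, was 40.7-fold lower, with 12.8 ± 0.847 CPM at day 25, against 520.0 ± 7.18 CPM at day 15 (adjusted p = 1.43e-47). CD7, an early T-lineage protein, averaged 2.21 ± 0.169 CPM at day 25, against 5.53 ± 0.455 CPM at day 15 (log2 fold change -1.32 ± 0.17, adjusted p = 3.48e-09), and CD34 of progenitors 1.10 ± 0.275 CPM at day 25, against 5.47 ± 0.853 CPM at day 15 (log2 fold change -2.29 ± 0.20, adjusted p = 9.05e-14). CD8A and CD8B did not pass the filter on low counts.

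Of 13 tested cytotoxic genes 4 were higher and 7 lower, or 4 and 6 with scaling by total count alone, beside 40.2% and 37.8% of all tested genes. NKG7, a granule protein of killer cells, averaged 46.0 ± 3.85 CPM at day 25, against 32.4 ± 1.04 CPM at day 15 (log2 fold change 0.51 ± 0.07, adjusted p = 4.21e-08). PRF1, perforin, averaged 2.06 ± 0.293 CPM at day 25, against 0.655 ± 0.428 CPM at day 15 (log2 fold change 1.61 ± 0.34, adjusted p = 5.27e-05). FCGR3A, the Fc receptor CD16 of NK cells and macrophages, averaged 104 ± 2.49 CPM at day 25, against 8.81 ± 0.287 CPM at day 15 (log2 fold change 3.56 ± 0.08, adjusted p = 2.08e-35). GZMB, granzyme B, had 4 counts at day 25 and 0 at day 15 and was not called (adjusted p = 0.141). KLRD1 and GZMM fell, by 3.32 and 3.00 on the log2 scale (adjusted p = 5.68e-05 and 3.39e-05), with day 15 levels near 1 CPM. With 14 and 16 counts at day 25 they could pass the filter on low counts only through other days, so nothing is drawn from their direction. GZMA, GZMK, GZMH, KLRB1 and IFNG were too low to test. The markers of NK cells summed to 32.9 to 38.5 CPM at day 25, against 7.23 to 10.1 CPM at day 15, and NCAM1, which neurons also express, held nearly all of it with 35.4 ± 2.73 CPM at day 25, against 6.73 ± 1.14 CPM at day 15. KLRD1 and NCR1, the other NK markers, stayed under 3 CPM in each of the 6 libraries.

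Notch genes, the pathway of the DLL4 in the medium, rose in 7 and fell in 10 of 17, beside 40.2% and 37.8% of all tested genes. With scaling by total count alone the split turned to 8 higher and 6 lower, and the median moved to -0.03, against -0.49 with TMM. The direct targets HES4, HES5 and HES1 fell, and HES4 had the most counts of them at day 15. HES4 measured 3.72, 3.83 and 3.94 CPM at day 25, against 60.7, 59.7 and 65.7 CPM at day 15 (log2 fold change -4.02 ± 0.11, adjusted p = 3.92e-32). HES1, named after its values were seen, averaged 10.5 ± 0.949 CPM at day 25, against 33.1 ± 1.81 CPM at day 15 (log2 fold change -1.65 ± 0.10, adjusted p = 9.15e-19). DTX1, another target that restrains Notch, rose, with 13.2 ± 0.825 CPM at day 25, against 0.664 ± 0.274 CPM at day 15 (log2 fold change 4.31 ± 0.25, adjusted p = 6.45e-20). The receptor NOTCH2, also named after its values were seen, averaged 303 ± 8.07 CPM at day 25, against 69.5 ± 2.40 CPM at day 15 (log2 fold change 2.12 ± 0.05, adjusted p = 1.21e-35).

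**Figure D2:**
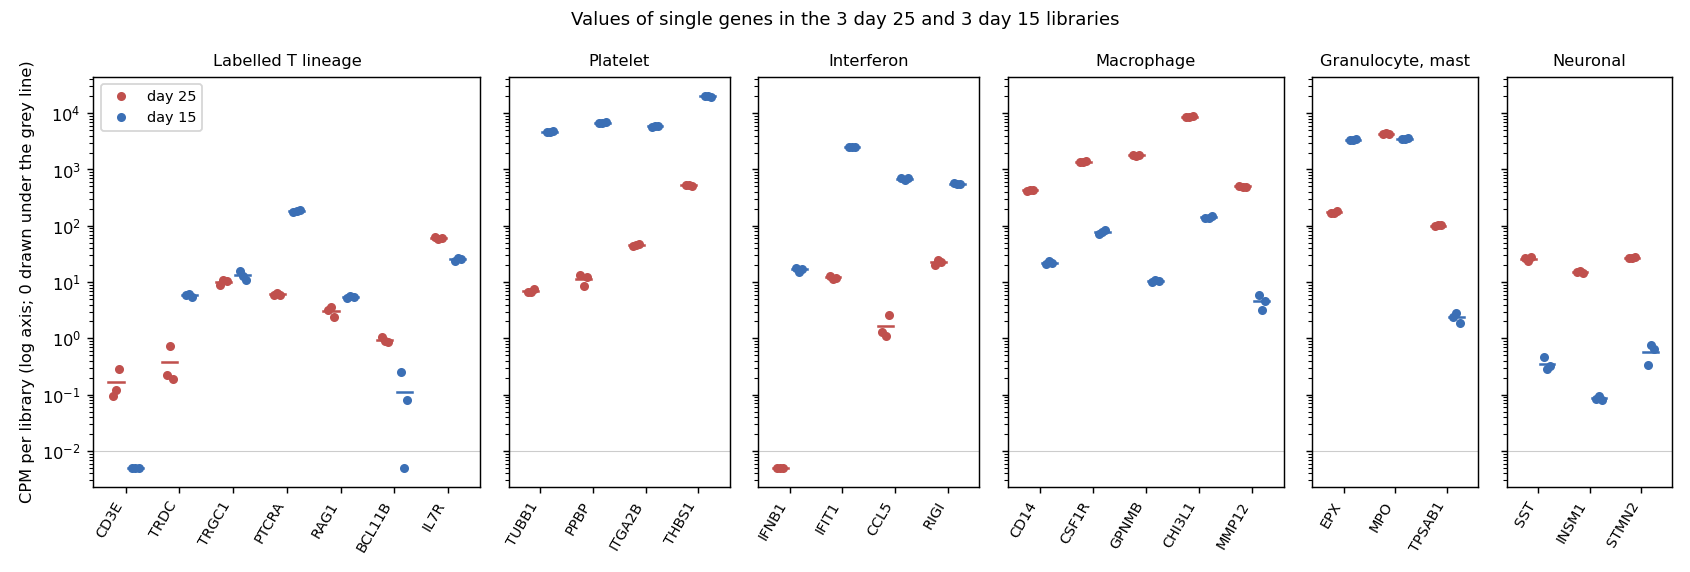
CPM of single genes on a log axis in each of the 3 day 25 libraries (red, left in each pair) and 3 day 15 libraries (blue, right), with the mean as a bar and libraries with no count drawn under the grey line. Platelet and interferon genes are far higher in the day 15 libraries, macrophage and neuronal genes in the day 25 libraries, and the TCR genes are low on both days.

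Platelet genes fell together, with the lowest median of the 47 lists. All 22 tested platelet and megakaryocyte genes were lower at day 25, with a median log2 fold change of -7.83, beside 0.06 over all tested genes and 37.8% of all tested genes called lower. TUBB1 (chromosome 20, 59019254 to 59026654), the tubulin that forms the rim of the platelet, measured 6.78, 6.58 and 7.68 CPM at day 25, against 4681, 4719 and 4763 CPM at day 15. It was 676-fold lower at day 25 (log2 fold change -9.40 ± 0.05, adjusted p = 5.64e-58). PPBP, the precursor of a platelet chemokine, measured 13.6, 8.63 and 12.6 CPM at day 25, against 6733, 6711 and 6855 CPM at day 15 and was 594-fold lower (adjusted p = 6.14e-13). In both the highest day 25 library was far below the lowest day 15 library.

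THBS1, thrombospondin of the platelet granule, took 0.0544% of all counts at day 25 and 1.52% at day 15. It measured 533, 535 and 499.8 CPM at day 25, against 20406, 20033 and 19775 CPM at day 15 (log2 fold change -5.26 ± 0.03, adjusted p = 1.63e-56). The fibrinogen receptor of platelets joins ITGA2B and ITGB3, and ITGA2B averaged 45.5 ± 1.91 CPM at day 25, against 5899 ± 129.5 CPM at day 15. ITGB3 averaged 52.2 ± 1.66 CPM at day 25, against 6997 ± 99.9 CPM at day 15. They fell 129.6-fold and 134-fold (adjusted p = 1.58e-57 and 1.58e-57). P2RY12, the platelet receptor for ADP, measured 0.0630, 0.0482 and 0.256 CPM at day 25, against 143, 145 and 140.1 CPM at day 15, 1198-fold lower (log2 fold change -10.23 ± 0.16, adjusted p = 2.36e-41). PF4V1 averaged 0.112 ± 0.0431 CPM at day 25, against 97.9 ± 4.59 CPM at day 15, but it shares reads with its near copy PF4 and its value is uncertain. A list of 18 adhesion and cytoskeletal genes of platelets, added after the values were seen, was lower throughout, where 37.8% of all tested genes were lower. TLN1, talin, which activates integrins, averaged 1387 ± 25.3 CPM at day 25, against 10944 ± 91.3 CPM at day 15. FLNA, filamin A, averaged 2296 ± 78.9 CPM at day 25, against 9889.8 ± 152 CPM at day 15. TLN1, FLNA and ACTB of this list were among the 8 genes with the most counts at day 15.

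Red cell genes fell with the platelet genes. Of 21 tested erythroid genes 19 were lower and 1 higher, beside 37.8% and 40.2% of all tested genes. Their median was -6.78, or -5.78 with genes at 0 counts set to their bound. HBG2, a fetal gamma globin, measured 0.126, 0.313 and 0.256 CPM at day 25, against 362, 339.6 and 339 CPM at day 15, 1425-fold lower at day 25 (log2 fold change -10.48 ± 0.11, adjusted p = 1.12e-43). Its near copy HBG1 can share its reads, so neither fold is certain on its own. HEMGN, a nuclear protein of red cell precursors, measured 0.189, 0.0965 and 0.0640 CPM at day 25, against 182, 189 and 185 CPM at day 15 and was 1559-fold lower (adjusted p = 2.37e-46).

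A list of factors of these lineages, which also holds the ubiquitin ligase TRIM58, fell too, with 14 of 15 lower and none higher. Of all tested genes 37.8% were lower. With scaling by total count alone 11 were lower and 2 higher. GATA1, their master regulator, measured 7.25, 6.87 and 8.42 CPM at day 25, against 453, 476 and 482 CPM at day 15 (log2 fold change -5.98 ± 0.05, adjusted p = 1.47e-49). TAL1, its partner, averaged 20.4 ± 0.958 CPM at day 25, against 2385 ± 16 CPM at day 15. GFI1B, a repressor required in both lineages, averaged 6.34 ± 0.115 CPM at day 25, against 761 ± 22.1 CPM at day 15. TRIM58, a ubiquitin ligase of late red cells, averaged 2.61 ± 0.448 CPM at day 25, against 1212 ± 8.91 CPM at day 15. These 3 fell 117-fold, 119.9-fold and 462-fold (adjusted p = 1.63e-56, 5.21e-53 and 1.41e-53). Among the 12 largest falls that the naming rule took were also LY6G6F, a surface protein of platelets, at 0.569 ± 0.120 CPM at day 25, against 539 ± 15.8 CPM at day 15, and PDZK1IP1, BEND2, TRAPPC3L, RD3L and OR2AT4. PDZK1IP1 averaged 0.229 ± 0.177 CPM at day 25, against 395 ± 18.7 CPM at day 15, and RD3L and TRAPPC3L had no count at day 25 and 2474 and 1874 counts at day 15.

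Interferon genes formed the other large fall. Cells that sense viral RNA through RIG-I (RIGI) and MDA5 (IFIH1) signal through MAVS to make interferon beta, which acts on the receptor of IFNAR1 and IFNAR2 and switches on the response genes. IFNB1, both sensors, MAVS and most response genes were lower at day 25, whereas the receptor chains were higher. Response genes that fell are shown by the 250 bases before their RefSeq transcription start ( GRCh38.p14), since 12 of the 17 response genes with a RefSeq window carry the core of the interferon-stimulated response element. Its letters are TTTC, any 2 bases and TTTC again, or on the other strand GAAA, any 2 bases and GAAA. Capitals mark that motif, and in ISG15 a pair of matches overlap.
IFIT1, chr10:89392373-89392622, plus strand: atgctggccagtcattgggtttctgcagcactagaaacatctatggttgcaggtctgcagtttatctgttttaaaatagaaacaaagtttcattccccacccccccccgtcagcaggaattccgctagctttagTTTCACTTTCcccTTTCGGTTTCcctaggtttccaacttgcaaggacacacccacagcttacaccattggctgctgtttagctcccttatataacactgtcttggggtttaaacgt
IFIT3, chr10:89327747-89327996, plus strand: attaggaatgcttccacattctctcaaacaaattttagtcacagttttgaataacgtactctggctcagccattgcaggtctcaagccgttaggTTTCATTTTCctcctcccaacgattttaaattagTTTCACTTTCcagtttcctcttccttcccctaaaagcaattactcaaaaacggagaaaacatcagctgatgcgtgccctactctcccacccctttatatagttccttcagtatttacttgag
ISG15, chr1:1013247-1013496, plus strand: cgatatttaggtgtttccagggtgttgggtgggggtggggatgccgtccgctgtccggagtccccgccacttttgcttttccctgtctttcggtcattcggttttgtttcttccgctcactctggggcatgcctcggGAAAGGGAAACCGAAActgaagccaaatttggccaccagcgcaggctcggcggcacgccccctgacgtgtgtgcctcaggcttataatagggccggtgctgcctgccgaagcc
CXCL10, chr4:76023498-76023747, minus strand: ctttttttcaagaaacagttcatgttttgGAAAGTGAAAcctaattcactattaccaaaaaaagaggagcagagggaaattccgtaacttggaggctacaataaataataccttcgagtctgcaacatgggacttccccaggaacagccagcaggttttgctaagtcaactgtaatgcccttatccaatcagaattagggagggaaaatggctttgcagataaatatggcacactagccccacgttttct

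The motif was searched in windows from 250 bases before to 50 after the start, on both strands, in the 14030 tested genes with a RefSeq window. It was present in 70.6% of the 17 windows of response genes, in 2.99% of all 14030 windows and in none of 17 windows of platelet genes. The matches in IFIT1 begin 116 and 103 bases before the start, those in IFIT3 156 and 122, those in ISG15 113 and 107, and the match in CXCL10 221. Among all genes at least 4-fold lower at day 25 the motif was in 4.34% of 1660 windows, and among those at least 4-fold higher in 2.81% of 1744. The GATA motif AGATAA was in 10.5% of the windows of genes at least 4-fold lower, in 6.82% of those at least 4-fold higher and in 6.27% of all, and the PU.1 motif GAGGAAGT in 3.01%, 3.38% and 2.67% of the same groups. A match says only that the letters are there, not that a factor bound.

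IFNB1, interferon beta, had no count at day 25 and measured 17.6, 15.3 and 17.4 CPM in the day 15 libraries. Against the limit of 3 counts over the day 25 libraries it was at least 586-fold lower (adjusted p = 3.43e-23). RIGI measured 20.2, 24.7 and 22.8 CPM at day 25, against 565, 550.3 and 553 CPM at day 15 (log2 fold change -4.62 ± 0.06, adjusted p = 1.01e-41). IFIH1 averaged 28.0 ± 3.15 CPM at day 25, against 391 ± 7.26 CPM at day 15 (log2 fold change -3.81 ± 0.06, adjusted p = 3.47e-35). MAVS averaged 211 ± 6.96 CPM at day 25, against 847 ± 20.1 CPM at day 15 (log2 fold change -2.01 ± 0.04, adjusted p = 5.43e-39). Of 23 tested ligands, receptors and sensors, a list added after the values were seen, 12 were lower and 10 higher. These counts are not far from the 37.8% and 40.2% of all tested genes. Among the lower ones IRF7 and IRF9, which relay the signal, fell 6.95-fold and 5.23-fold.

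Receptor chains and the endosomal sensors TLR3, TLR7 and TLR8 went the other way, while TLR9 fell by 1.08 on the log2 scale. IFNAR1 measured 169, 170.3 and 172 CPM at day 25, against 41.3, 34.6 and 39.3 CPM at day 15 (log2 fold change 2.15 ± 0.06, adjusted p = 1.12e-30). IFNLR1, a chain of the lambda interferon receptor, averaged 14.8 ± 0.653 CPM at day 25, against 0.406 ± 0.393 CPM at day 15 (log2 fold change 5.14 ± 0.37, adjusted p = 2.93e-12). TLR8, an endosomal sensor of single-stranded RNA in myeloid cells, averaged 147 ± 5.52 CPM at day 25, against 3.80 ± 0.643 CPM at day 15 (log2 fold change 5.27 ± 0.09, adjusted p = 1.04e-38). STING1, an adaptor for DNA sensing, averaged 52.6 ± 1.14 CPM at day 25, against 51.1 ± 4.78 CPM at day 15 and was not called (adjusted p = 0.489).

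Of the 24 interferon response genes 22 were lower, 1 was higher and 1 was not called, with a median of -3.25. Of all tested genes 37.8% were lower. IFIT1 (chromosome 10, 89392546 to 89406486), which binds viral RNA, measured 12.9, 11.6 and 11.9 CPM at day 25, against 2508, 2503 and 2463 CPM at day 15. It was 206-fold lower at day 25 (log2 fold change -7.69 ± 0.05, adjusted p = 2.46e-55). IFIT2 averaged 12.9 ± 1.98 CPM at day 25, against 1368 ± 13.8 CPM at day 15. IFIT3 averaged 29.1 ± 1.11 CPM at day 25, against 1673 ± 30.1 CPM at day 15, and they fell 106-fold and 57.5-fold (adjusted p = 1.01e-41 and 6.24e-39). ISG15, a ubiquitin-like protein, averaged 26.5 ± 0.736 CPM at day 25, against 979.7 ± 18.2 CPM at day 15 (log2 fold change -5.21 ± 0.05, adjusted p = 3.30e-49). The 2 that did not fall were IFI44, at 17.0 ± 1.71 CPM at day 25, against 13.6 ± 1.51 CPM at day 15 (log2 fold change 0.32 ± 0.11, adjusted p = 0.00805), and IFI44L, at 16 ± 1.00 CPM at day 25, against 15.6 ± 1.16 CPM at day 15 (adjusted p = 0.727), and both promoter windows hold the motif.

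CXCL10 and CXCL11, chemokines that interferon induces, fell with them, and so did the chemokines CCL5 and CXCL5. What part the fall of the megakaryocyte markers had in these values was not tested. CXCL10 measured 0.126, 0.121 and 0.128 CPM at day 25, against 55.7, 52.7 and 55.5 CPM at day 15, 425-fold lower (log2 fold change -8.73 ± 0.19, adjusted p = 4.03e-35), and CXCL11 had no count at day 25 and 1639 at day 15, at least 824-fold lower. CCL5, which draws T cells and monocytes, measured 1.29, 1.09 and 2.62 CPM at day 25, against 697, 652 and 705 CPM at day 15 (log2 fold change -8.73 ± 0.13, adjusted p = 2.75e-16). CXCL5, a neutrophil attractant, averaged 1.93 ± 0.736 CPM at day 25, against 575 ± 17.7 CPM at day 15 (log2 fold change -8.24 ± 0.09, adjusted p = 8.36e-31). Of 21 tested chemokine ligands 6 were higher and 11 lower, beside 40.2% and 37.8% of all tested genes, or 9 and 11 with scaling by total count alone. CCL22, which macrophages and dendritic cells make, was among the higher ones with 148 ± 5.94 CPM at day 25, against 7.18 ± 0.806 CPM at day 15 (log2 fold change 4.36 ± 0.08, adjusted p = 2.54e-39). Chemokine receptors were mostly higher, 12 of 16, where 40.2% of all tested genes were higher, and 1 was lower. That was CCR4, at 0.306 ± 0.0194 CPM at day 25, against 175 ± 8.68 CPM at day 15 (log2 fold change -9.14 ± 0.12, adjusted p = 1.85e-44), while CXCR1 rose, at 5.43 ± 0.172 CPM at day 25, against 0.212 ± 0.148 CPM at day 15 (log2 fold change 4.63 ± 0.36, adjusted p = 7.92e-15).

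MHC class I genes, which interferon also induces, were higher in 2 and lower in 10 of 13 tested, where 37.8% of all tested genes were lower. With scaling by total count alone 5 were higher and 7 lower, and the median moved to -0.37, against -0.83 with TMM. TAP1, the peptide transporter, averaged 51.0 ± 0.661 CPM at day 25, against 347 ± 5.88 CPM at day 15 (log2 fold change -2.77 ± 0.05, adjusted p = 7.75e-40). Its partner TAP2 averaged 61.1 ± 1.37 CPM at day 25, against 227 ± 7.79 CPM at day 15 (log2 fold change -1.90 ± 0.04, adjusted p = 4.09e-34). PSMB9, a subunit of the immunoproteasome, averaged 12.1 ± 1.35 CPM at day 25, against 42.6 ± 3.81 CPM at day 15 (log2 fold change -1.82 ± 0.11, adjusted p = 3.05e-18).

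**Figure D3:**
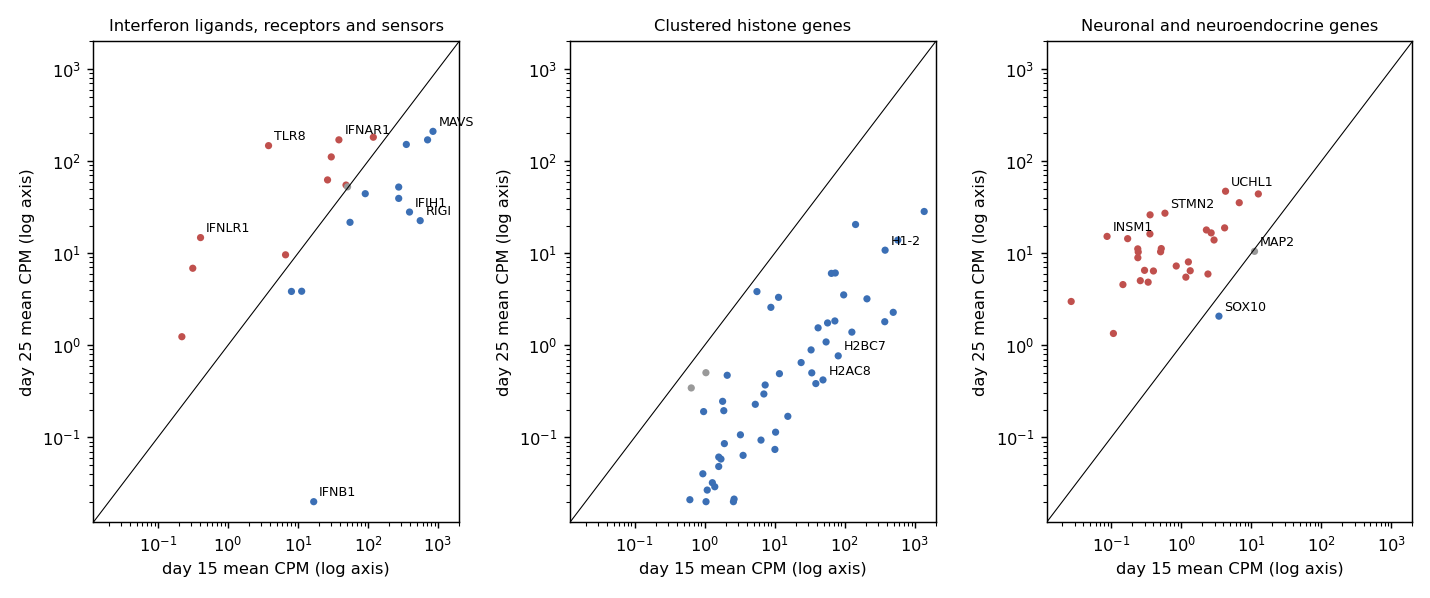
Mean CPM at day 25 against mean CPM at day 15, both on log axes, for the tested genes of 3 lists added after the values were seen, with genes called higher at day 25 in red, lower in blue and not called in grey. Values under 0.02 CPM, IFNB1 at day 25 among them, are drawn at 0.02. Interferon genes lie on both sides of the line of equality, the 50 histone genes called lower below it and the 29 neuronal genes called higher above it.

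Clustered histone genes moved with the interferon and platelet genes. Most of their transcripts lack a poly(A) tail and are made during DNA replication. Of 52 tested genes, a list added after the values were seen, 50 were lower at day 25 and none higher, where 37.8% of all tested genes were lower. Their median was -5.00, and the list summed to 117.9 to 126.5 CPM at day 25, against 4512 to 4525 CPM at day 15. Some members were near 0 at day 25, such as H1-6 with 0 counts there and 178 at day 15, and H2AC21 with 3 and 74. Such genes could pass the filter on low counts only through other days, so their direction carries no weight in the count or the median. H1-2, a linker histone, measured 11.0, 11.6 and 9.80 CPM at day 25, against 383, 376 and 374 CPM at day 15 (log2 fold change -5.12 ± 0.07, adjusted p = 2.12e-33). Near-identical members share reads, so single genes are uncertain. Of 21 replication genes 10 were higher and 8 lower, close to the 40.2% and 37.8% of all tested genes, and of 21 mitosis genes 14 were higher and 2 lower. With scaling by total count alone the counts were 16 and 3 for replication and 19 and 1 for mitosis, and with TMM no member of either list rose 2-fold. MKI67, a marker of dividing cells, averaged 206 ± 7.33 CPM at day 25, against 159.9 ± 2.04 CPM at day 15 (log2 fold change 0.37 ± 0.04, adjusted p = 4.13e-11). That change was smaller than the shift between scalings, which with total count alone moved values up. E2F1, which drives entry into replication, fell, with 20.8 ± 1.91 CPM at day 25, against 189.6 ± 2.92 CPM at day 15 (log2 fold change -3.18 ± 0.06, adjusted p = 4.24e-39). NEAT1, a nuclear non-coding RNA, took 0.0614% of counts at day 25 and 0.525% at day 15, and measured 588, 601 and 583 CPM at day 25, against 6871, 6908 and 7065 CPM at day 15 (log2 fold change -3.56 ± 0.03, adjusted p = 1.42e-51). Whether the higher level of these RNAs at day 15 plays a part in other results was not tested.

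Macrophage genes rose together. All 26 tested receptors of monocytes and macrophages were higher at day 25, with a median log2 fold change of 2.80, beside 0.06 over all tested genes and 40.2% of all tested genes called higher. CSF1R (chromosome 5, 150053291 to 150113372), the receptor on which macrophages depend, measured 1360.1, 1371 and 1391 CPM at day 25, against 72.4, 78.4 and 83.3 CPM at day 15. It was 17.6-fold higher (log2 fold change 4.14 ± 0.04, adjusted p = 6.66e-48). CD14, the co-receptor for lipopolysaccharide, measured 419, 425 and 429 CPM at day 25, against 20.7, 24.0 and 21.5 CPM at day 15, 19.3-fold higher (log2 fold change 4.27 ± 0.05, adjusted p = 3.13e-45). The libraries of the days lay far apart in both.

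MSR1, TREM2 and LILRB4 rose by larger factors than CSF1R and CD14. MSR1, a scavenger receptor, averaged 117 ± 5.41 CPM at day 25, against 2.32 ± 0.561 CPM at day 15 (log2 fold change 5.64 ± 0.10, adjusted p = 1.12e-36). TREM2, a lipid-sensing receptor of macrophages and microglia, averaged 373 ± 5.79 CPM at day 25, against 8.76 ± 1.31 CPM at day 15 (log2 fold change 5.42 ± 0.06, adjusted p = 3.71e-45). LILRB4, an inhibitory receptor, averaged 7.58 ± 0.261 CPM at day 25, against 0.119 ± 0.0641 CPM at day 15 (log2 fold change 5.98 ± 0.39, adjusted p = 2.67e-17). MS4A6E, the largest rise that the naming rule took, had no count at day 15 and measured 16.5, 17.6 and 18.0 CPM in the day 25 libraries, at least 401-fold higher. Complement, which macrophages make in part, was higher in 14 of 15 genes, where 40.2% of all tested genes were higher. C1QB averaged 286 ± 10.5 CPM at day 25, against 4.37 ± 0.119 CPM at day 15 (log2 fold change 6.03 ± 0.07, adjusted p = 3.09e-45). C1QA averaged 215 ± 7.58 CPM at day 25, against 5.45 ± 0.760 CPM at day 15 (log2 fold change 5.30 ± 0.08, adjusted p = 1.12e-40).

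Lysosomal and lipid genes rose alongside, 25 of 27 tested, with 2 lower and a median of 3.12, where 40.2% of all tested genes were higher. GPNMB (chromosome 7, 23235967 to 23275108), a glycoprotein of lysosomes in lipid-loaded macrophages, measured 1786, 1735 and 1809.6 CPM at day 25, against 9.87, 10.8 and 10.3 CPM at day 15. It was 172-fold higher (log2 fold change 7.43 ± 0.06, adjusted p = 1.99e-48). APOE, the lipid carrier that macrophages release, measured 2867, 2853 and 2804 CPM at day 25, against 24.0, 28.4 and 29.2 CPM at day 15, 104-fold higher (log2 fold change 6.71 ± 0.05, adjusted p = 9.83e-49). APOC1 averaged 259 ± 0.542 CPM at day 25, against 3.32 ± 1.14 CPM at day 15 (log2 fold change 6.27 ± 0.09, adjusted p = 1.71e-39). CTSB, a lysosomal protease, took 0.692% of counts at day 25 and 0.0214% at day 15 and rose 23.6-fold (adjusted p = 5.21e-53). FTL, the ferritin light chain that stores iron, took 0.833% of counts at day 25 and 0.219% at day 15.

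Genes of fused and bone-resorbing macrophages rose in 11 and fell in 2 of 14 tested, beside 40.2% and 37.8% of all tested genes. Their median was 4.94. ACP5, the tartrate-resistant phosphatase of osteoclasts, measured 867, 856 and 844 CPM at day 25, against 8.73, 8.41 and 9.24 CPM at day 15 (log2 fold change 6.60 ± 0.05, adjusted p = 3.13e-52). CHI3L1, a secreted chitinase-like protein, measured 8572, 8563 and 8829 CPM at day 25, against 136, 139 and 152 CPM at day 15 and took 0.897% of counts at day 25, against 0.0108% at day 15 (log2 fold change 5.93 ± 0.09, adjusted p = 6.32e-13). SPP1, osteopontin, averaged 8162 ± 257 CPM at day 25, against 391 ± 3.60 CPM at day 15 (log2 fold change 4.38 ± 0.03, adjusted p = 3.46e-53). DCSTAMP, which is needed for fusion and was named after its values were seen, averaged 206 ± 6.68 CPM at day 25, against 2.52 ± 0.984 CPM at day 15 (log2 fold change 6.35 ± 0.11, adjusted p = 5.05e-33). The 2 that fell were ITGB3, also a platelet integrin, and NFATC1, the factor that directs osteoclast formation.

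Genes of MHC class II presentation and dendritic cells rose in 22 of 24 tested, with a median of 3.72, where 40.2% of all tested genes were higher. HLA-DMB, which loads peptides, averaged 107 ± 4.87 CPM at day 25, against 0.962 ± 0.0801 CPM at day 15, 111-fold higher (log2 fold change 6.79 ± 0.12, adjusted p = 2.25e-39). HLA-DQA1 averaged 28.5 ± 0.862 CPM at day 25, against 0.836 ± 0.155 CPM at day 15 (log2 fold change 5.08 ± 0.17, adjusted p = 1.51e-27), though class II paralogs can share reads. CIITA, the switch of the class II genes, was named after its values were seen and averaged 26.4 ± 2.51 CPM at day 25, against 2.81 ± 1.24 CPM at day 15 (log2 fold change 3.26 ± 0.25, adjusted p = 2.04e-08). CD207, the langerin of Langerhans cells, and CLEC9A of cross-presenting dendritic cells fell, CD207 to 0.159 ± 0.145 CPM at day 25, against 5.83 ± 0.522 CPM at day 15 (log2 fold change -5.28 ± 0.43, adjusted p = 2.00e-14). The dendritic markers CD1C, CLEC10A and CLEC9A summed to 34.0 to 40.4 CPM at day 25, against 5.32 to 5.44 CPM at day 15.

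Myeloid transcription factors rose in 13 and fell in 4 of 18, beside 40.2% and 37.8% of all tested genes. SPI1, the factor PU.1, averaged 505 ± 16.1 CPM at day 25, against 122 ± 9.35 CPM at day 15 (log2 fold change 2.05 ± 0.04, adjusted p = 2.26e-36). IRF8, a factor of monocytes and dendritic cells, averaged 95.4 ± 2.30 CPM at day 25, against 10.4 ± 0.631 CPM at day 15 (log2 fold change 3.20 ± 0.07, adjusted p = 2.18e-34). NR1H3, the lipid sensor LXR alpha, averaged 121 ± 1.86 CPM at day 25, against 12.8 ± 0.314 CPM at day 15 (log2 fold change 3.24 ± 0.06, adjusted p = 6.02e-37).

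Matrix proteases were higher as well. Of 16 tested metalloproteinases and inhibitors 14 were higher and 2 lower, beside 40.2% and 37.8% of all tested genes, with a median of 2.86. MMP7 (chromosome 11, 102520508 to 102530753), matrilysin, measured 365, 353 and 362 CPM at day 25, against 0.548, 0.483 and 1.21 CPM at day 15. It was 468-fold higher (log2 fold change 8.87 ± 0.11, adjusted p = 7.28e-33), with 53 counts in all at day 15. MMP12, the elastase of macrophages, measured 508, 495 and 495 CPM at day 25, against 5.86, 3.24 and 4.58 CPM at day 15, 108-fold higher (log2 fold change 6.76 ± 0.08, adjusted p = 4.79e-36), and MMP9, a gelatinase of macrophages, neutrophils and osteoclasts, averaged 1163 ± 31.9 CPM at day 25, against 24.5 ± 1.34 CPM at day 15 (log2 fold change 5.57 ± 0.05, adjusted p = 1.76e-51). Among the inhibitors TIMP2 was higher and TIMP3 lower, and TIMP1 fell by 0.18, less than the shift between scalings.

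**Figure D4:**
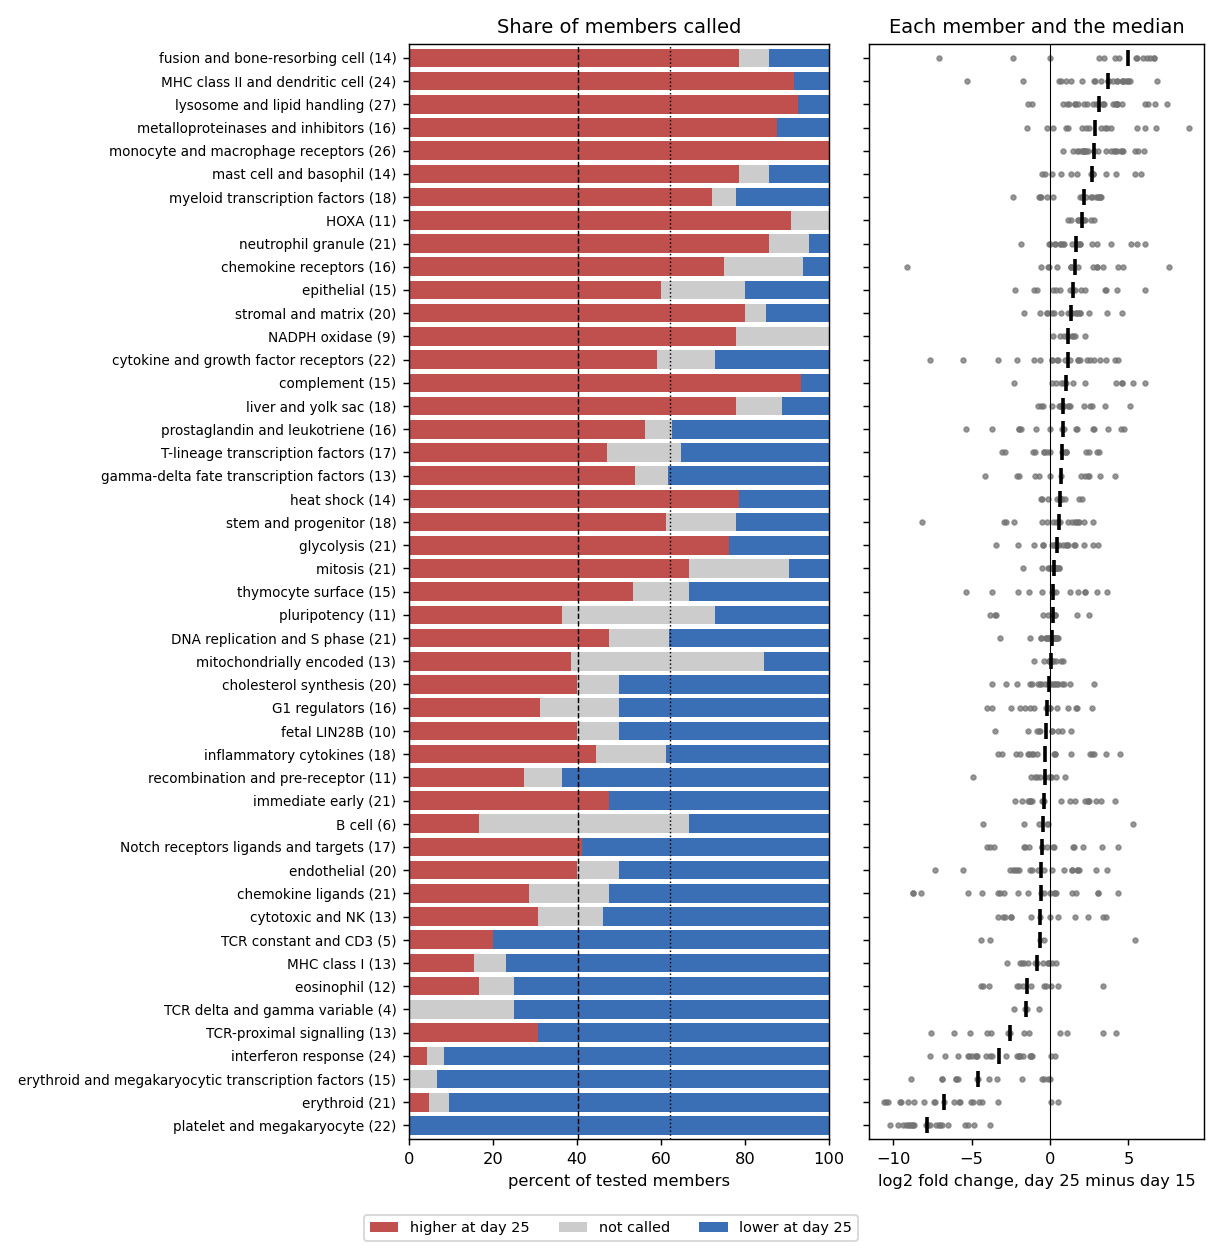
Gene lists with at least 4 tested members, sorted by median log2 fold change (number tested in parentheses). The left panel gives the percent of tested members called higher at day 25 (red), not called (grey) and lower (blue), where the dashed line marks the 40.2% of all tested genes called higher and the dotted line leaves the 37.8% called lower on its right. The right panel gives each member's log2 fold change as a dot and the median as a bar, with macrophage, class II and protease lists at the top and platelet, erythroid and interferon lists at the bottom.

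Granulocyte genes did not move as one, and their counts stand beside 40.2% higher and 37.8% lower of all tested genes. Eosinophil genes fell in 9 and rose in 2 of 12 tested, and EPX, the eosinophil peroxidase, measured 169, 168 and 181 CPM at day 25, against 3308, 3379.8 and 3493 CPM at day 15 (log2 fold change -4.30 ± 0.03, adjusted p = 6.68e-52). PRG2 and PRG3, the major basic proteins, fell 15.0-fold and 21.0-fold (adjusted p = 1.49e-49 and 1.16e-49), with PRG2 at 269.7 ± 5.86 CPM at day 25, against 4045 ± 182 CPM at day 15. Neutrophil granule genes rose in 18 and fell in 1 of 21. MPO, of the primary granule, rose little, with 4332 ± 42.0 CPM at day 25, against 3532 ± 76.7 CPM at day 15 (log2 fold change 0.29 ± 0.03, adjusted p = 5.63e-14). That rise was less than the shift between scalings, which with total count alone moved values up. CAMP, of the secondary granule, averaged 136 ± 6.99 CPM at day 25, against 3.71 ± 0.762 CPM at day 15 (log2 fold change 5.18 ± 0.09, adjusted p = 1.69e-37). MMP8, another secondary granule enzyme, averaged 126 ± 8.27 CPM at day 25, against 1.87 ± 0.265 CPM at day 15 (log2 fold change 6.07 ± 0.10, adjusted p = 1.44e-38). The NADPH oxidase that phagocytes use rose in 7 of 9 tested genes and fell in none, with its subunit CYBB at 978 ± 3.96 CPM at day 25, against 367 ± 8.48 CPM at day 15 (log2 fold change 1.41 ± 0.03, adjusted p = 2.59e-35).

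Mast cell genes rose in 11 and fell in 2 of 14 tested, beside 40.2% and 37.8% of all tested genes, with a median of 2.68. TPSAB1, a tryptase of mast cell granules, measured 97.5, 102 and 102 CPM at day 25, against 2.36, 2.85 and 1.85 CPM at day 15 (log2 fold change 5.43 ± 0.10, adjusted p = 1.96e-37), but it shares reads with its near copy TPSB2, and the split between them is uncertain. ENPP3, a surface enzyme of mast cells and basophils, averaged 3.53 ± 0.346 CPM at day 25, against 0.187 ± 0.0575 CPM at day 15 (log2 fold change 4.21 ± 0.44, adjusted p = 1.24e-11). KIT, the receptor for the SCF of the medium, measured 243, 229 and 237 CPM at day 25, against 21.1, 20.2 and 19.4 CPM at day 15, 11.7-fold higher (log2 fold change 3.55 ± 0.06, adjusted p = 1.12e-40). The markers CPA3, TPSAB1 and MS4A2 summed to 281 to 297 CPM at day 25, against 28.9 to 33.8 CPM at day 15.

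Receptors for cytokines and growth factors rose in 13 and fell in 6 of 22, beside 40.2% and 37.8% of all tested genes. TNFRSF1B, a TNF receptor of myeloid cells, averaged 818 ± 8.99 CPM at day 25, against 40.1 ± 1.03 CPM at day 15 (log2 fold change 4.35 ± 0.04, adjusted p = 6.17e-48). KDR, the VEGF receptor of endothelium, was 47.7-fold lower, with 41.0 ± 1.03 CPM at day 25, against 1954 ± 25.7 CPM at day 15 (adjusted p = 9.24e-54). The endothelial list, KDR included, gave 8 higher and 10 lower of 20, beside 40.2% and 37.8% of all tested genes, and 9 of each with scaling by total count alone. ESAM, an adhesion protein of endothelium and platelets, was 159-fold lower, at 3.22 ± 0.776 CPM at day 25, against 525 ± 17.3 CPM at day 15. STAB1, a scavenger receptor of sinusoidal endothelium and macrophages, averaged 1120.2 ± 42.0 CPM at day 25, against 91.5 ± 4.46 CPM at day 15 (log2 fold change 3.62 ± 0.04, adjusted p = 6.82e-46).

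Stromal genes rose in 16 and fell in 3 of 20 tested, beside 40.2% and 37.8% of all tested genes, with a median of 1.31. FN1, fibronectin, which macrophages also secrete, took 0.919% of counts at day 25, against 0.0284% at day 15. It measured 8796, 8973 and 8741 CPM at day 25, against 375, 381 and 371 CPM at day 15 (log2 fold change 4.56 ± 0.04, adjusted p = 3.26e-46). COL6A1, a collagen of connective tissue, averaged 922 ± 9.08 CPM at day 25, against 74.4 ± 4.58 CPM at day 15 (log2 fold change 3.63 ± 0.04, adjusted p = 6.20e-47). DCN, decorin of fibroblasts, averaged 154 ± 6.67 CPM at day 25, against 26.9 ± 1.85 CPM at day 15 (log2 fold change 2.51 ± 0.05, adjusted p = 2.44e-35). The stromal markers COL1A1, COL3A1 and DCN summed to 3614 to 3689.8 CPM at day 25, against 1168 to 1228 CPM at day 15. GPC4, a heparan sulfate proteoglycan of the cell surface, was among the largest rises, with 234 ± 4.34 CPM at day 25, against 1.78 ± 0.214 CPM at day 15 (log2 fold change 7.03 ± 0.09, adjusted p = 2.72e-44).

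Epithelial genes rose in 9 and fell in 3 of 15 tested, beside 40.2% and 37.8% of all tested genes. CDH1, E-cadherin, measured 28.5, 28.7 and 30.0 CPM at day 25, against 0.211, 0.193 and 0.844 CPM at day 15 (log2 fold change 6.06 ± 0.16, adjusted p = 1.51e-30). KRT79, a keratin of epithelium and one of the largest rises, averaged 42.0 ± 1.17 CPM at day 25, against 0.205 ± 0.186 CPM at day 15 (log2 fold change 7.57 ± 0.22, adjusted p = 3.57e-30). All 55 keratin genes of the table, a list added after the values were seen, gave 12 higher and none lower of 14 testable, where 40.2% of all tested genes were higher. Of the 14, 4 had no count at day 15 and passed the filter only through other days, so their direction carries no weight. Genes of liver and yolk sac rose in 14 and fell in 2 of 18, among them SERPINA1, an antiprotease that monocytes also make, at 124 ± 0.839 CPM at day 25, against 19.5 ± 0.896 CPM at day 15 (log2 fold change 2.66 ± 0.06, adjusted p = 8.76e-36).

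Genes of neurons and neuroendocrine cells rose from low levels. INSM1 (chromosome 20, 20368121 to 20370949), a factor of neuroendocrine cells and among the 12 largest rises, measured 15.1, 15.9 and 14.7 CPM at day 25, against 0.0844, 0.0967 and 0.0804 CPM at day 15. It was 168-fold higher, on 1597 counts at day 25 and 6 at day 15 (log2 fold change 7.39 ± 0.33, adjusted p = 5.03e-23). A list of 31 such genes, added after INSM1 was seen, had 29 higher, 1 lower and 1 not called, where 40.2% of all tested genes were higher. The median was 3.80 and the sum 411.9 to 428.1 CPM at day 25, against 59.9 to 63.8 CPM at day 15. SST, somatostatin, averaged 26.1 ± 1.83 CPM at day 25, against 0.359 ± 0.0928 CPM at day 15 (log2 fold change 6.16 ± 0.23, adjusted p = 3.66e-26). STMN2, a microtubule regulator of neurons, averaged 27.2 ± 0.641 CPM at day 25, against 0.585 ± 0.224 CPM at day 15 (log2 fold change 5.55 ± 0.17, adjusted p = 3.12e-29). SOX10, a factor of neural crest and glia, was the gene that fell, to 2.07 ± 0.641 CPM at day 25, against 3.45 ± 1.27 CPM at day 15 (log2 fold change -0.73 ± 0.27, adjusted p = 0.0133). Its libraries overlapped between the days, and scaling by total count alone did not keep that call, with 30 of the 31 genes higher and none lower. ADRA2B, an adrenergic receptor, and SLC6A7, a proline transporter of brain, were also among the 12 largest rises, at 41.9 against 0.129 CPM and 14.6 against 0.105 CPM (day 25 against day 15).

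HOXA genes rose together, 10 of 11 with none lower and a median of 2.02, all from low levels, where 40.2% of all tested genes were higher. HOXA3 averaged 3.16 ± 0.777 CPM at day 25, against 0.770 ± 0.0865 CPM at day 15 (log2 fold change 2.03 ± 0.31, adjusted p = 1.26e-07), and the list summed to 23.0 to 27.8 CPM at day 25. Genes of pluripotent cells were higher in 4 and lower in 3 of 11, near the shares over all tested genes, and POU5F1 was not called. LIN28A, which holds fetal and stem cell states, averaged 2.59 ± 0.922 CPM at day 25, against 30.1 ± 0.563 CPM at day 15 (log2 fold change -3.52 ± 0.11, adjusted p = 1.00e-24). DNMT3B, a DNA methyltransferase of early embryonic cells, averaged 6.81 ± 1.71 CPM at day 25, against 99.0 ± 3.11 CPM at day 15 (log2 fold change -3.84 ± 0.08, adjusted p = 2.35e-27). Glycolysis genes rose in 16 and fell in 5 of 21, beside 40.2% and 37.8% of all tested genes. The glucose transporter SLC2A3, which platelets use, averaged 260.4 ± 4.14 CPM at day 25, against 2856 ± 51.6 CPM at day 15 (log2 fold change -3.46 ± 0.03, adjusted p = 2.11e-49), whereas the hexokinase HK3 of myeloid cells averaged 396 ± 2.45 CPM at day 25, against 46.9 ± 6.32 CPM at day 15 (log2 fold change 3.07 ± 0.10, adjusted p = 3.16e-11). Heat shock genes were higher in 11 and lower in 3 of 14, beside 40.2% and 37.8% of all tested genes. Their median was only 0.64 with TMM, and 2 were at least 2-fold higher. Scaling by total count alone, which moved values up, gave a median of 1.09 with 12 higher and none lower. HSPB1, among the 2 that rose at least 2-fold, averaged 130.2 ± 3.00 CPM at day 25, against 35.6 ± 2.47 CPM at day 15 (log2 fold change 1.87 ± 0.05, adjusted p = 1.57e-31). At day 10 HSPB1 averaged 122 CPM.

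Regulators of the G1 phase rose in 5 and fell in 8 of 16, beside 40.2% and 37.8% of all tested genes. They rose in 9 and fell in 7 when libraries were scaled by total count alone, which also changed the sign of the median. CCND3, a cyclin D of blood cells, measured 141, 134 and 142 CPM at day 25, against 1722, 1808 and 1864 CPM at day 15 (log2 fold change -3.69 ± 0.04, adjusted p = 5.74e-49). CDKN2D, an inhibitor of its kinases, averaged 21.1 ± 1.47 CPM at day 25, against 344 ± 17.3 CPM at day 15 (log2 fold change -4.03 ± 0.05, adjusted p = 7.41e-44). CCND1, the cyclin D of many adherent cells, went the other way, at 173 ± 2.46 CPM at day 25, against 26.7 ± 1.03 CPM at day 15 (log2 fold change 2.69 ± 0.05, adjusted p = 1.01e-36). Cholesterol synthesis, also a list whose median changed sign with the scaling, gave 8 higher and 10 lower of 20, not far from the 40.2% and 37.8% of all tested genes. With scaling by total count alone 12 were higher and 8 lower. INSIG1, a brake on the pathway, averaged 75.3 ± 2.13 CPM at day 25, against 987 ± 5.72 CPM at day 15 (log2 fold change -3.71 ± 0.04, adjusted p = 1.04e-46). Lipid mediators differed by enzyme: ALOX12, the platelet lipoxygenase, was 41.1-fold lower (adjusted p = 7.85e-46) and PLA2G7, a lipase of macrophages, 23.5-fold higher (adjusted p = 4.21e-32).

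Levels at days 10 and 20 place the change in time and are given without a test. Of the 4781 genes called at least 2-fold lower at day 25, 4378 had a day 10 mean below the day 15 mean and 403 above it. Most of these falls were thus from a day 15 level above that of day 10. Of the 4961 called at least 2-fold higher, 2661 had a day 10 mean above the day 15 mean and 2240 below it. TUBB1 averaged 388, 4721, 49.2 and 7.01 CPM at days 10, 15, 20 and 25, and IFIT1 63.4, 2491, 50.5 and 12.1 CPM. EPX averaged 1.12, 3394, 1719 and 173 CPM, and MPO 382, 3532, 11859 and 4332 CPM. TUBB1 and IFIT1 were thus high at day 15 and low at day 20, while MPO was highest at day 20. Platelet genes differed at day 10, where THBS1 averaged 9377 CPM and ITGB3 2702 CPM, but P2RY12 0.983 CPM. GPNMB averaged 0.110, 10.3, 635 and 1777 CPM at the same days, MMP12 0, 4.56, 19.6 and 499 CPM and CHI3L1 0.888, 142, 828 and 8655 CPM. For these 3 the day 20 mean lay between the others. TRDC averaged 0.109, 5.81, 1.46 and 0.379 CPM, and TRGC1 1.69, 13.2, 24.8 and 10.0 CPM. The neutrophil markers summed to 13459 to 13572 CPM at day 20 and 5420.3 to 5558 CPM at day 25, and the stromal markers to 5491 to 5595 and 3614 to 3689.8 CPM.

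**Figure D5:**
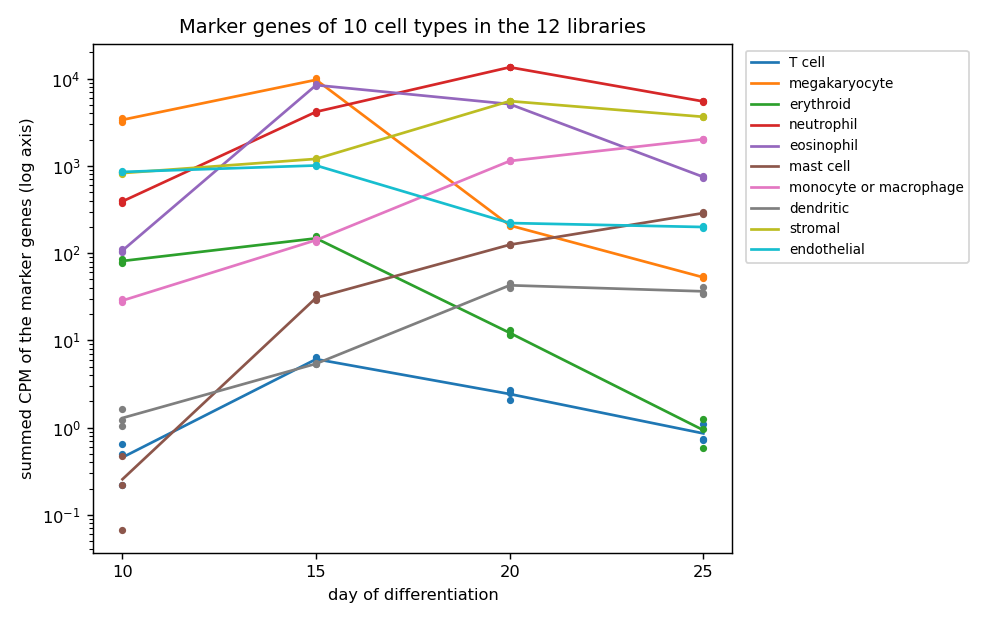
Summed CPM of the marker genes of 10 cell types (log axis) at days 10, 15, 20 and 25, with each library as a dot and the mean of 3 libraries as a line. Megakaryocyte, erythroid and eosinophil markers are lower at day 25 than at day 15, monocyte or macrophage, mast cell, dendritic and stromal markers are higher, and T cell markers stay under 7 CPM on every day.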

How the data were processed

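The values the authors deposited are raw counts of reads for each gene ID, 1 column for each library, per the file headers. Libraries were made by ligation-mediated sequencing from total RNA and read as single reads, per the labels' protocols, and, for the genome build, the submitters' processing notes name GRCh38. Which aligner, counter, annotation and strand setting were used is not given in the sources used here. Symbols came from a table of gene names (25321 of 36601 IDs), coordinates from GENCODE 29, and promoter windows from RefSeq (14030 of 20183 tested genes).

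The test was made with edgeR 4.0.16 under R 4.3.3. Genes passing filterByExpr with a minimum count of 10 were scaled by TMM, and all 12 libraries entered one robust quasi-likelihood fit without covariates (common biological coefficient of variation 6.03%), from which day 25 and day 15 were contrasted. No 2 libraries held identical values. The alternatives used limma 3.58.1 and DESeq2 1.42.0, and are given in the closing section. The fit was tested on simulated data in which few genes changed, so that run could not test the scaling where most genes differ. Bounds and limits at a floor of 3 counts cover counting error only. Tables and figures used matplotlib 3.10.9, pandas 2.3.3 and numpy 2.4.6 under Python 3.11.15.

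The comparison, the 47 gene lists, the naming rule and the alternatives were chosen with earlier results of these data known, and further lists were added after the values were seen. No set test was run. The rule named the 12 largest called rises and falls that reached 10 CPM on whichever day was higher without overlap between days (clone, pseudogene, LINC and antisense names left out), up to 3 called members per list at 1 CPM or more, the 8 genes with the most counts per day, and a fixed panel of 30 genes. Other genes, those of the added lists included, were named after their values were seen. Some genes that the rule took are given only in counts, and a few are not reported here.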

Additional observations from a re-analysis of the deposited data

How the results depend on the processing

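The counts of called genes stayed within 1.5 times their value under all alternatives run. Leaving out each library in turn gave 7976 to 8044 genes higher and 7421 to 7472 lower, and 4942 to 5031 and 4717 to 4804 at least 2-fold. DESeq2's own test called 8161 higher and 7595 lower, limma-voom 8166 and 7706, a fit to the 6 libraries alone 7818 and 7440, and no filter on low counts 9681 and 6982. Scaling by total count alone gave 10769 and 5402. A test against a 2-fold change itself (glmTreat) called 4032 and 4039. No shared deviation was seen between same-numbered libraries of the days, with correlations of 0.00, -0.01 and 0.01. These cannot show whether same-numbered libraries share a culture. A fit with the replicate number as a block called 8036 higher and 7541 lower. Of 181 tested genes of the naming rule 177 kept their direction and call under each of the 16 alternatives that gave them a value. Genes named outside that rule, SOX10 among them, were not in this count. Of the 181, 14 lacked a value under 1 or 2 alternatives that removed them or left too few counts. TRGC1 reversed to 0.063 with scaling by total count alone and lost its call without the filter (-0.18) and without day 15 replicate 1 (-0.23). TRGC2 (-0.21) and RAG1 (-0.36) lost theirs with scaling by total count alone, and MT-ND4 gained one there (0.48) and without the filter (0.23), the cause of which was not tested. Depth limits genes near 0: most CD3 and granzyme genes had too few counts to be tested, and GZMB, with 4 counts at day 25 and 0 at day 15, was tested and not called.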
